A study of Mus musculus with 4 samples.

Results

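Cells with Foxp3 transcripts were present in brain and spleen libraries that had been sorted for conventional CD4+ T cells. A Foxp3-expressing cell was defined here as a cell barcode with at least 2 unique molecular identifiers (UMIs, each standing for 1 captured RNA molecule) of Foxp3 (ENSMUSG00000039521), at least 500 detected genes, at least 1000 UMIs, at most 10% of UMIs from mitochondrial genes, and at most 1 productive TRB and 2 productive TRA chains of the T cell receptor. By this rule 929 of 12123 kept cells were Foxp3-expressing, 206 of 3964 in brain and 723 of 8159 in spleen. They were set beside the cells of the same tissue in which no Foxp3 UMI was counted, called Foxp3-zero cells below, which numbered 3696 in brain and 7204 in spleen. The 62 brain and 232 spleen cells with 1 Foxp3 UMI entered neither set. The cells were chosen by their measured Foxp3 counts, so Foxp3 values and every difference from Foxp3-zero cells are given as a description.

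The mice were wild-type (WT) C57BL/6 animals with experimental autoimmune encephalomyelitis (EAE), a model in which immunisation leads to T cell inflammation of the brain and spinal cord, examined on day 60. From spleen and from brain, T cells positive for CD4 and CD44 and negative for GITR (the conventional, or Tconv, gate) were sorted, and 38000 and 18718 of them were loaded for droplet sequencing of RNA from the 5' end, with a receptor library from the same droplets. All samples carried EAE, so no comparison with unimmunised mice could be made, and the number, sex and age of the animals behind each library are not given in the labels. There was 1 RNA and 1 receptor library per tissue. No value therefore has a replicate check, and every interval below covers counting error only.

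Foxp3 encodes the transcription factor that defines regulatory T cells, CD4+ cells that restrain other immune cells. Regulatory T cells typically carry the IL-2 receptor alpha chain CD25 (Il2ra), many carry the transcription factor Helios (Ikzf2), and activated ones display GARP (Lrrc32), which holds latent TGF-beta at the cell surface. GITR (Tnfrsf18) is itself high on most regulatory T cells, so a GITR- gate is commonly used to leave them out. In EAE, regulatory T cells accumulate in the inflamed nervous system and are known for limiting the disease.

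The receptor sequences of 5 clonotypes are shown because they carry the relation of Foxp3-expressing cells to each other, to Foxp3-zero cells and to the other tissue. A clonotype joins cells with the same V gene and the same CDR3 nucleotides in both chains. Each line gives the CDR3 region, 5' to 3', from the deposited receptor tables. Lower-case letters match the commonest CDR3 start of the V gene or the commonest CDR3 end of the J gene in these tables, and capitals mark the bases left between them.
Clonotype A, TRB (TRBV20, TRBJ2-5): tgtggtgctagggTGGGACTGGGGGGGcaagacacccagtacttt
Clonotype A, TRA (TRAV7D-2, TRAJ23): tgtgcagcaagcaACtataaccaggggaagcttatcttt
Clonotype B, TRB (TRBV13-1, TRBJ1-1): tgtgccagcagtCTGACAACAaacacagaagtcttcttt
Clonotype B, TRA (TRAV7D-2, TRAJ26): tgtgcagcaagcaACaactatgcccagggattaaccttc
Clonotype C, TRB (TRBV1, TRBJ1-1): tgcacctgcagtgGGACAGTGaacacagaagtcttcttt
Clonotype C, TRA (TRAV12-2, TRAJ34): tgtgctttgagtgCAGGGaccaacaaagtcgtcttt
Clonotype D, TRB (TRBV26, TRBJ2-7): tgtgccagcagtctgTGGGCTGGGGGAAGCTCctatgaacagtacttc
Clonotype D, TRA (TRAV7D-4, TRAJ22): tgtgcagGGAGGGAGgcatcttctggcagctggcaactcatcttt
Clonotype E, TRB (TRBV31, TRBJ1-2): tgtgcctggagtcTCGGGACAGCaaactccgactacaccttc
Clonotype E, TRA (TRAV12-3, TRAJ12): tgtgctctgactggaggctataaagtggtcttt

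Clonotype A was the one in which a Foxp3-expressing cell sat inside a large expanded clone: 1 brain cell with 8 Foxp3 UMIs shared this receptor with 47 Foxp3-zero cells of brain and 1 of spleen. Clonotype B held 4 Foxp3-expressing spleen cells, with 3, 5, 5 and 6 Foxp3 UMIs, and no other cell. Clonotype C joined 1 Foxp3-expressing brain cell and 1 Foxp3-expressing spleen cell, each with 2 Foxp3 UMIs, to 2 Foxp3-zero spleen cells. Clonotype D joined 1 Foxp3-expressing brain cell with 6 Foxp3 UMIs to 1 Foxp3-expressing spleen cell with 2. Clonotype E held 2 Foxp3-expressing brain cells, with 2 and 10 Foxp3 UMIs. Its TRA had no base left between the commonest V start and J end in these tables, and 2 bases were left in the TRA of clonotypes A and B.

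The deposited matrices held 4277 brain and 8707 spleen barcodes, with 44386447 and 65191435 UMIs. Filters on depth and mitochondrial share left 4143 and 8474 barcodes, and the limit on receptor chains, which acts on barcodes that hold more than 1 T cell, then removed 179 and 315. No doublet caller was run beyond that limit. Kept cells had a median of 9843.5 UMIs in brain and 7159 in spleen. Among Foxp3-expressing cells the medians were 9336 and 6885, near the 9884 and 7214 of Foxp3-zero cells. The libraries shared 31 barcodes, 15 of them kept cells and 0 of them Foxp3-expressing.

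Foxp3-expressing cells made up 5.2% of kept cells in brain (exact binomial 95% interval 4.53 to 5.93%) and 8.86% in spleen (8.25 to 9.50%). When each cell of at least 3000 UMIs was thinned to that depth, which left out 227 brain and 549 spleen cells, the shares were 2.78% and 5.69%. Spleen was thus the higher at equal depth too. These are shares among cells that passed the GITR- gate, so they do not give the frequency of regulatory T cells in either tissue. A Foxp3-expressing cell held a median of 5 Foxp3 UMIs in brain and 4 in spleen, with maxima of 25 and 28. Cells with the invariant receptor of natural killer T (NKT) cells, which should lack Foxp3, gave the background: 0 of 123 in brain had a Foxp3 UMI, which allows a share of up to 2.44% at a floor of 3 cells (exact binomial upper limit 2.95%). In spleen 3 of 665 such cells (0.451%) had 1 Foxp3 UMI and 0 had 2, which allows up to 0.451% at the same floor (exact upper limit 0.553%). Median depth of these cells was 10380 and 7386 UMIs. B-like barcodes of spleen, with at least 2 Cd79a UMIs and at least 1 Ms4a1 UMI, had 1 Foxp3 UMI in 1 of 152 cells.

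A set of brain barcodes stood apart and is described before the comparisons. Of the 206 Foxp3-expressing brain cells, 48 (23.3%) had no receptor chain in the receptor table, against 67 of 723 in spleen. The 48 had a median of 16789.5 UMIs and 4493.5 genes, while the 158 with a chain had a median of 8866.5 UMIs. In spleen the order was the opposite, 4480 UMIs without a chain and 6934.5 with one. Of the 48, 27 lay above 16019.5 UMIs, the 90th percentile of kept brain cells, as did 15 of the 158. Brain Foxp3-zero cells without a chain had a median of 4451 UMIs, and 126 of 540 (23.3%) lay above that percentile.

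The chainless brain barcodes also differed in content. Il17a, the cytokine that marks Th17 cells, had 154 UMIs in 11 of the 48 and 1 UMI in 1 of the 158 with a chain, and 76 of those UMIs came from 1 barcode. Ifng, the Th1 cytokine interferon-gamma, had 234 UMIs in 23 of the 48 and 37 UMIs in 13 of the 158. Foxp3 was pooled to 248 CPM (counts per 1e6 UMIs, summed over cells) in barcodes without a chain and 675 CPM in those with one. Lrrc32 was at 37.3 and 90.5 CPM, and the chemokine receptor gene Cxcr6 at 323 and 45.3 CPM. Trac, the constant region of the receptor alpha chain, was at 393 CPM without a chain and 312 CPM with one, so receptor RNA was counted in these barcodes. Whether they hold RNA of more than 1 cell was not tested. Each result below covers all Foxp3-expressing cells, and the value over cells with at least 1 receptor chain is added where it changes the call of a gene described or moves a printed ratio by more than 1.5 times.

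**Figure D1:**
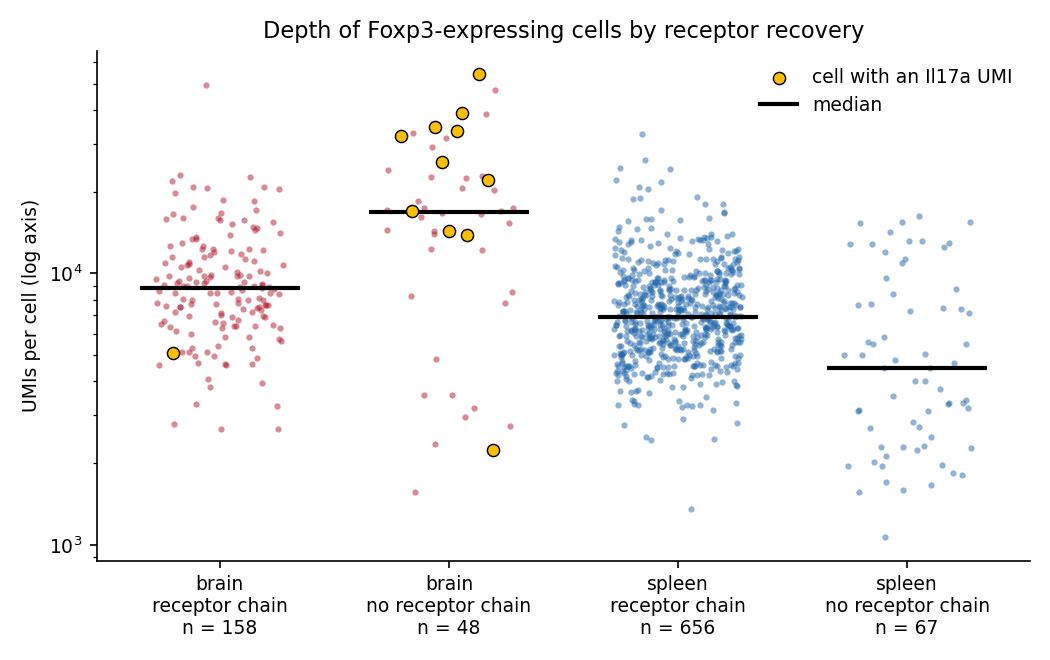
UMIs per cell (log axis) of the 929 Foxp3-expressing cells, split by tissue and by whether a receptor chain was recovered. Points are cells, bars are medians, and yellow points are cells with an Il17a UMI. Brain cells without a chain sit higher (median 16789.5 UMIs) than those with one (8866.5 UMIs) and hold 11 of the 12 cells with an Il17a UMI.

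The cells carried the other genes that mark regulatory T cells. In brain, 198 of 206 had a UMI of at least 1 of Ikzf2, Il2ra and Lrrc32, and 53 had all of them. In spleen, 685 of 723 had at least 1 and 136 had all. Foxp3-zero cells had none of the genes in 58.5% of brain and 70.4% of spleen cells. The label of Foxp3-expressing cells was thus matched by its marker genes, with 8 brain and 38 spleen cells in which no other marker was counted.

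The markers differed in how well they separated the cells. A UMI of Ikzf2 was found in 83.5% of Foxp3-expressing and 13.2% of Foxp3-zero cells in brain, and in 81.1% and 21.6% in spleen. Lrrc32 was found in 40.3% and 0.974% in brain, and in 28.5% and 0.944% in spleen, with 0 of 123 and 1 of 665 invariant NKT cells. Il2ra was less specific: it was found in 68.4% of Foxp3-expressing and 31.4% of Foxp3-zero brain cells, and 66.0% of spleen invariant NKT cells had a UMI of it against 61.8% of Foxp3-expressing spleen cells. At 3000 UMIs per cell the Ikzf2 shares of Foxp3-expressing cells were 69.0% in brain and 69.8% in spleen, and those of Lrrc32 were 19.7% and 16.2%. Ctla4, the gene of an inhibitory receptor, was found in 99% of Foxp3-expressing brain cells and 95% of Foxp3-expressing spleen cells, and in 62.6% and 30.4% of Foxp3-zero cells.

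Levels of these genes differed by Foxp3 count. Among cells with a receptor chain, pooled Ikzf2 in brain was 35.1 CPM in cells with 0 Foxp3 UMIs, 495 CPM with 1, 665 CPM with 2, 741 CPM with 3 to 4 and 845 CPM with 5 or more. In spleen it was 107, 631, 929, 937 and 845 CPM in the same classes. Thus cells just outside the threshold, with 1 Foxp3 UMI, already stood nearer to the cells just inside it than to Foxp3-zero cells. Ctla4 was at 543, 1684, 1714, 2243 and 2609 CPM in the brain classes, and in spleen was 140, 734, 976, 1041 and 1031 CPM. Lrrc32 in brain was at 1.26, 57.2, 38.8, 91.5 and 99.1 CPM, and in spleen at 2.08, 39.9, 53.7, 66.2 and 77.7 CPM. Pde3b, a phosphodiesterase gene whose repression is part of the regulatory T cell programme, went the other way: 206, 48.6, 16.6, 14.8 and 17.2 CPM in brain and 282, 92.0, 35, 17.9 and 9.71 CPM in spleen. The brain classes of 1, 2, and 3 to 4 Foxp3 UMIs held 37, 21 and 43 cells, and the spleen classes 191, 120 and 202. The classes also differed in depth, with brain medians from 6883 UMIs at 2 Foxp3 UMIs to 10143.5 UMIs at 0.

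**Figure D2:**
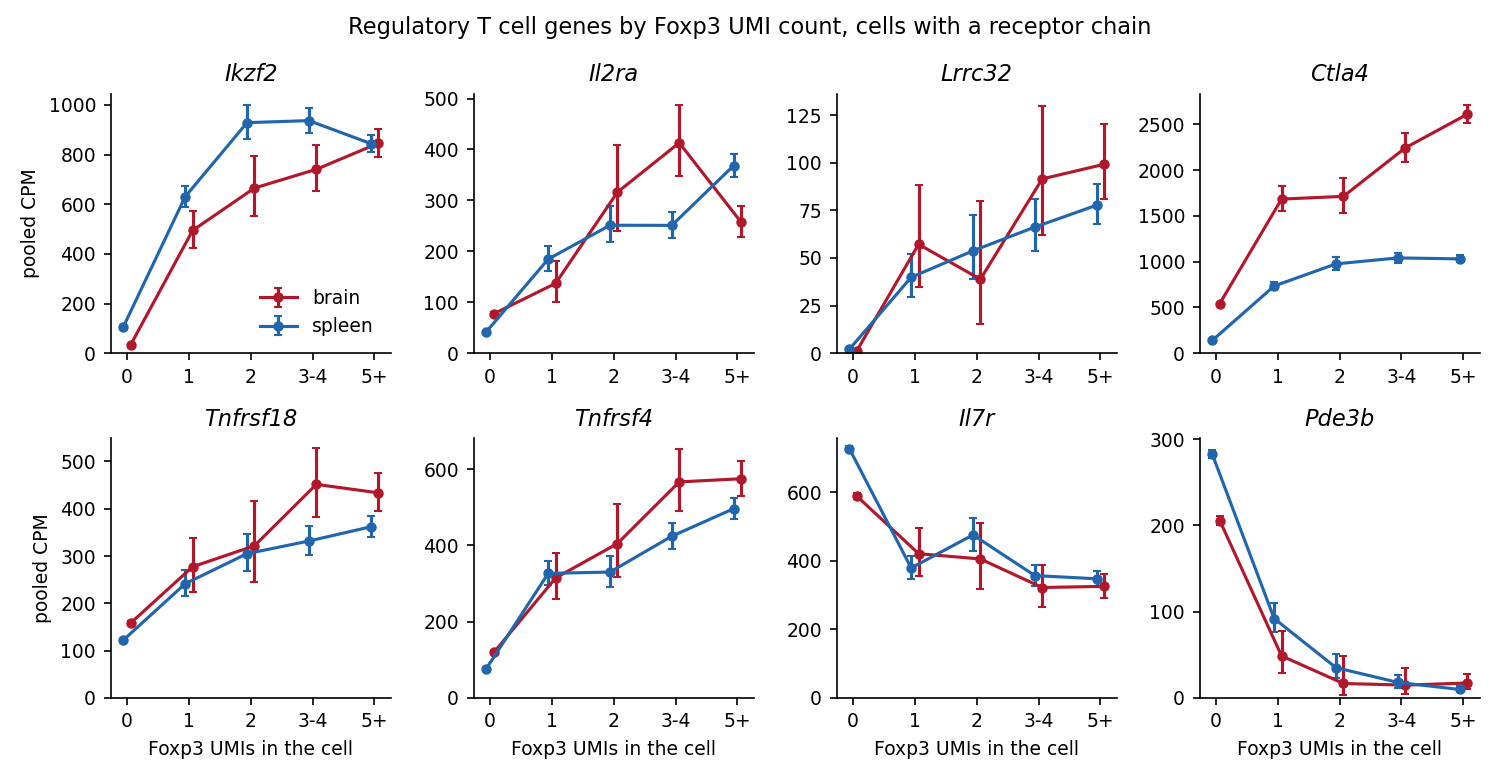
Pooled CPM (vertical axes from 0) of 8 genes in cells with 0, 1, 2, 3 to 4 and 5 or more Foxp3 UMIs, for brain (red) and spleen (blue) cells with a receptor chain. Bars are exact Poisson 95% intervals. Ikzf2, Lrrc32 and Ctla4 are higher in each class with Foxp3 than in the class with none, and Il7r and Pde3b are lower.

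In each tissue, Foxp3-expressing cells were compared with Foxp3-zero cells by the ratio of pooled CPM. A gene was called higher or lower when the ratio was at least 1.5-fold in either direction, its exact 95% interval excluded 1, and the higher level was at least 10 CPM. Most genes known as the regulatory T cell signature were higher: 21 of 30 measured in brain and 26 of 28 in spleen, with medians of 1.89 and 1.87 on the log2 scale. Over all genes, 5.97% of 8498 were called higher and 5.07% lower in brain, and 6.67% of 8682 were called higher and 4.78% lower in spleen, with medians of 0.02 and 0.03. Over cells with a receptor chain, 8.72% were called higher and 7.5% lower in brain, and 7.25% higher and 4.32% lower in spleen. The signature list was chosen with such differences known, so its direction is not independent evidence. In brain, Penk was the signature gene called lower, and in cells with a receptor chain Rgs1 was lower as well, at 0.62-fold.

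The markers other than Foxp3 had ratios well above the median gene. Lrrc32 (ENSMUSG00000090958) was at 71.4 CPM in Foxp3-expressing and 1.93 CPM in Foxp3-zero brain cells, a ratio of 37.0 (interval 28 to 49.2). In spleen it was at 71.6 and 2.25 CPM, a ratio of 31.8 (25.9 to 39.3). Brain cells with a receptor chain gave 72.0-fold. Ikzf2 (ENSMUSG00000025997) was at 727 and 48.3 CPM in brain, 15.1-fold higher (14.1 to 16.1), and at 912 and 118 CPM in spleen, 7.75-fold higher (7.46 to 8.04). Brain cells with a receptor chain gave 22.9-fold. The level in Foxp3-expressing cells was thus close between tissues, and the Foxp3-zero level was lower in brain. Il2ra (ENSMUSG00000026770) was at 299 and 81.4 CPM in brain, 3.67-fold (3.38 to 3.98), and at 326 and 44.0 CPM in spleen, 7.42-fold (6.98 to 7.90). With invariant NKT cells left out of spleen, the Il2ra ratio there was 12.6-fold.

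Among transcription factors that act with Foxp3, Ikzf2 and its relative Ikzf4 (Eos, a co-repressor) were higher in both tissues. Ikzf4 was at 48.5 and 8.22 CPM in brain, 5.91-fold, and 60.6 and 6.00 CPM in spleen, 10.1-fold. Of 18 measured partners in brain, 3 were higher and 2 lower, and of 19 in spleen, 5 were higher and 4 lower. With a receptor chain, 7 of 18 were higher in brain, where Bach2, Foxo1, Foxp1 and Stat5a joined. Tcf7, which encodes TCF-1, a factor of naive and memory cells, was lower in both tissues, 0.515-fold in brain and 0.473-fold in spleen. Lef1, of the same family, was lower in spleen at 0.489-fold (280 and 573 CPM), and was at 189 and 217 CPM in brain, a ratio of 0.871 (0.792 to 0.957) that was not called. Satb1, a chromatin organiser, was called lower in spleen, 0.411-fold, and not in brain, where it was at 225 and 314 CPM.

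The IL-2 receptor genes beside Il2ra had smaller ratios. Il2rb, the beta chain, was at 313 and 289 CPM in brain, a ratio of 1.08, and at 259 and 164 CPM in spleen, 1.57-fold higher. With invariant NKT cells left out of spleen, Il2rb was 2.54-fold higher there. Il2rg, the shared gamma chain, was within 1.05-fold in both tissues. Il7r (ENSMUSG00000003882), the IL-7 receptor that is low on regulatory T cells, was lower in both, at 374 and 582 CPM in brain (0.643-fold) and 378 and 717 CPM in spleen (0.526-fold). Cish and Socs2, feedback inhibitors induced by IL-2 signalling, were higher in spleen, 2.72-fold and 1.89-fold, and Socs2 was 3.38-fold higher there without invariant NKT cells. In brain they were not called, with Cish at 229 and 247 CPM and Socs2 at 84.4 and 58.1 CPM.

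Surface molecules of suppression were higher in 8 of 19 measured in brain and 13 of 18 in spleen, and lower in 2 and 1, among them Furin in both tissues. With invariant NKT cells left out of spleen, Furin was 0.688-fold there and not called, and Fgl2 was called higher, 2.59-fold. Ctla4 (ENSMUSG00000026011) was 3.70-fold higher in brain and 7.04-fold higher in spleen, from Foxp3-zero levels of 568 and 147 CPM. Izumo1r, the gene of folate receptor 4, was at 336 and 70.3 CPM in brain, 4.78-fold, and 791 and 248 CPM in spleen, 3.19-fold. Nrp1, neuropilin-1, was 2.82-fold and 3.86-fold higher. Gpr83, an orphan receptor of regulatory T cells, was at 20.4 and 0.444 CPM in brain, 46.0-fold (26.1 to 85.0), and at 48.4 and 4.68 CPM in spleen, 10.3-fold. Itgb8, an integrin chain that releases active TGF-beta, was 9.38-fold higher in brain and 3.93-fold higher in spleen.

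Other genes of the surface group were called higher in spleen and did not reach the call in brain. Entpd1 and Nt5e, the ectoenzymes CD39 and CD73 that make adenosine, were 2.13-fold and 1.93-fold higher in spleen, while in brain Entpd1 was at 40.8 and 34.4 CPM and Nt5e at 145 and 101 CPM, a ratio of 1.44. Icos, a costimulatory receptor, was 1.89-fold higher in spleen and at 495 CPM in both brain sets. Pdcd1, the gene of PD-1, was 1.90-fold higher in spleen. In brain it was at 57.5 and 67.9 CPM, and in brain cells with a receptor chain it was called lower, 0.632-fold. The difference between tissues was not tested.

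GITR itself was not absent at the RNA level. Tnfrsf18 (ENSMUSG00000041954), which encodes it, was at 356 CPM in Foxp3-expressing and 155 CPM in Foxp3-zero brain cells, 2.29-fold higher (2.13 to 2.46), and at 333 and 119 CPM in spleen, 2.80-fold higher (2.66 to 2.95). A Tnfrsf18 UMI was found in 88.3% of Foxp3-expressing cells in brain and 80.5% in spleen. Foxp3-zero cells had one in 63.1% and 46.1%, and invariant NKT cells in 81.3% and 82.3%. Tnfrsf18 RNA was thus not particular to Foxp3-expressing cells. The sort acted on surface protein, which was not measured in these files. Of the other genes of the gate, Cd44 was lower in Foxp3-expressing brain cells (150 and 266 CPM, 0.567-fold) and at 98.1 and 134 CPM in spleen, and Cd4 was at 248 and 344 CPM in brain and 265 and 343 CPM in spleen. In brain cells with a receptor chain Cd4 was called lower, 0.634-fold. Related receptors were higher too: Tnfrsf4 (OX40) 3.75-fold and 5.92-fold, Tnfrsf9 (4-1BB) 2.87-fold and 3.99-fold, and Cd27 3.14-fold and 1.66-fold in brain and spleen. Cd40lg, the ligand by which helper cells activate B cells, was the member of this family called lower, 0.316-fold in brain and 0.375-fold in spleen, and 0.134-fold in brain cells with a receptor chain.

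Of 9 secreted mediators measured in brain, 4 were higher in Foxp3-expressing cells and 3 lower (Gzma, Penk and Lgals3). Of 8 in spleen, 4 were higher and 1 lower (Prf1). The medians were 0.06 and 0.65 on the log2 scale. Some were counted in few cells. Areg, amphiregulin, a growth factor linked to tissue repair, was at 151 and 39.3 CPM in brain, 3.85-fold higher (3.43 to 4.32), and at 17.7 and 2.34 CPM in spleen, 7.55-fold higher (5.73 to 9.92). It was counted in 68 of 206 Foxp3-expressing brain cells and 39 of 723 in spleen. Il10, the gene of an inhibitory cytokine, was at 28.1 and 6.16 CPM in brain, 4.57-fold higher, carried by 17 of 206 cells. In spleen Il10 was at 2.39 and 1.26 CPM, below the level needed for a call. Ebi3, a subunit of IL-35, was 4.27-fold and 5.18-fold higher. Gzmb, granzyme B, was 1.87-fold higher in brain, from 26 cells, and was not called with a receptor chain (1.4-fold). In spleen it was 3.0-fold higher, with 30.0% of its UMIs from 1 of 19 cells.

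Genes that Foxp3 is known to repress were lower in 9 of 16 measured in brain and 12 of 16 in spleen. Pde3b was at 46.5 and 222 CPM in brain, 0.209-fold, and at 18.8 and 304 CPM in spleen, 0.0618-fold. In brain cells with a receptor chain it was at 16.6 and 206 CPM, 0.0806-fold. Il2, the growth factor that regulatory T cells consume and do not make, had 6 UMIs in Foxp3-expressing brain cells (2.45 against 20.6 CPM, 0.119-fold, and 0.0620-fold with a receptor chain) and 4 in spleen (0.736 against 15.1 CPM, 0.0488-fold). Themis, a signalling protein of the T cell receptor, was 0.390-fold in brain and 0.228-fold in spleen, and 0.146-fold in brain cells with a receptor chain. Dusp4, a phosphatase gene of the same list, was called higher in both tissues, and Ptger2 in spleen.

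Cytokine genes of helper cells were lower in 9 of 10 measured in brain and 0 were higher. In spleen 3 of 7 were lower (Ifng, Il2, Il4) and 2 were higher (Lta, Csf1). Ifng was at 111 and 332 CPM in brain, 0.333-fold (0.294 to 0.376), and at 23.6 and 322 CPM, 0.0732-fold (0.0515 to 0.101), in cells with a receptor chain. In spleen it was at 2.95 and 23.1 CPM, 0.128-fold. Il17a was at 63.2 and 254 CPM in brain, 0.249-fold, with 49.0% of its 155 UMIs from 1 cell, and had 1 UMI in cells with a receptor chain (0.638 against 245 CPM, a ratio of 0.00261 with an interval of 6.60e-05 to 0.0145). Of the factors that drive helper fates, Tbx21 (T-bet, Th1) was lower in both tissues, 0.386-fold and 0.255-fold, and 0.204-fold in brain cells with a receptor chain. Maf was higher in both, 1.69-fold and 1.71-fold, and Gata3 in spleen, 1.57-fold. The spleen Foxp3-zero set held invariant NKT cells, of which 66.9% had a Tbx21 UMI and 97.7% a Cxcr6 UMI. Without them, the spleen ratio of Tbx21 was 0.407 and that of Cxcr6 moved from 0.0350 to 0.0809.

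Among the genes of the 10 highest ratios in a tissue that stood in none of the lists were Phlpp1, a phosphatase of AKT (6.28-fold in brain, 4.24-fold in spleen), Dst, a cytoskeletal linker (6.12-fold and 6.73-fold), Lclat1, a lipid acyltransferase (4.30-fold and 5.10-fold), and Cd81, a tetraspanin (6.17-fold and 2.85-fold, and 10.7-fold in brain cells with a receptor chain). Hdac9, a histone deacetylase, was 14.8-fold higher in brain, where 56.8% of its UMIs came from 1 of 28 cells. In cells with a receptor chain, where the top cell gave 14.6%, it was at 30.6 and 1.92 CPM, 16.0-fold. Of 10 B cell genes, Ms4a1, a defining marker, was at 0 in Foxp3-expressing cells of both tissues. The 2 measured in brain, Cd79b and Ighm, were both higher in Foxp3-expressing cells, and the 10 genes summed to 295 and 99.9 CPM. In spleen 9 of 10 were lower, with sums of 539 and 697 CPM. Over spleen cells with a receptor chain the 2 measured were both higher, with sums of 553 and 302 CPM. The part of B cell RNA in other results was not tested. Other defining markers were at 0 in Foxp3-expressing cells of both tissues for brain tissue (Mog, Mag, Aqp4, Snap25), and in spleen for myeloid cells (Lyz2, Csf1r, Tyrobp). The 10 myeloid genes summed to 203 CPM in Foxp3-expressing and 183 CPM in Foxp3-zero brain cells. In brain, Tyrobp had 63 UMIs, 92.1% of them in 1 cell, and Cd8a had 16 UMIs, 93.8% of them in 1 cell.

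**Figure D3:**
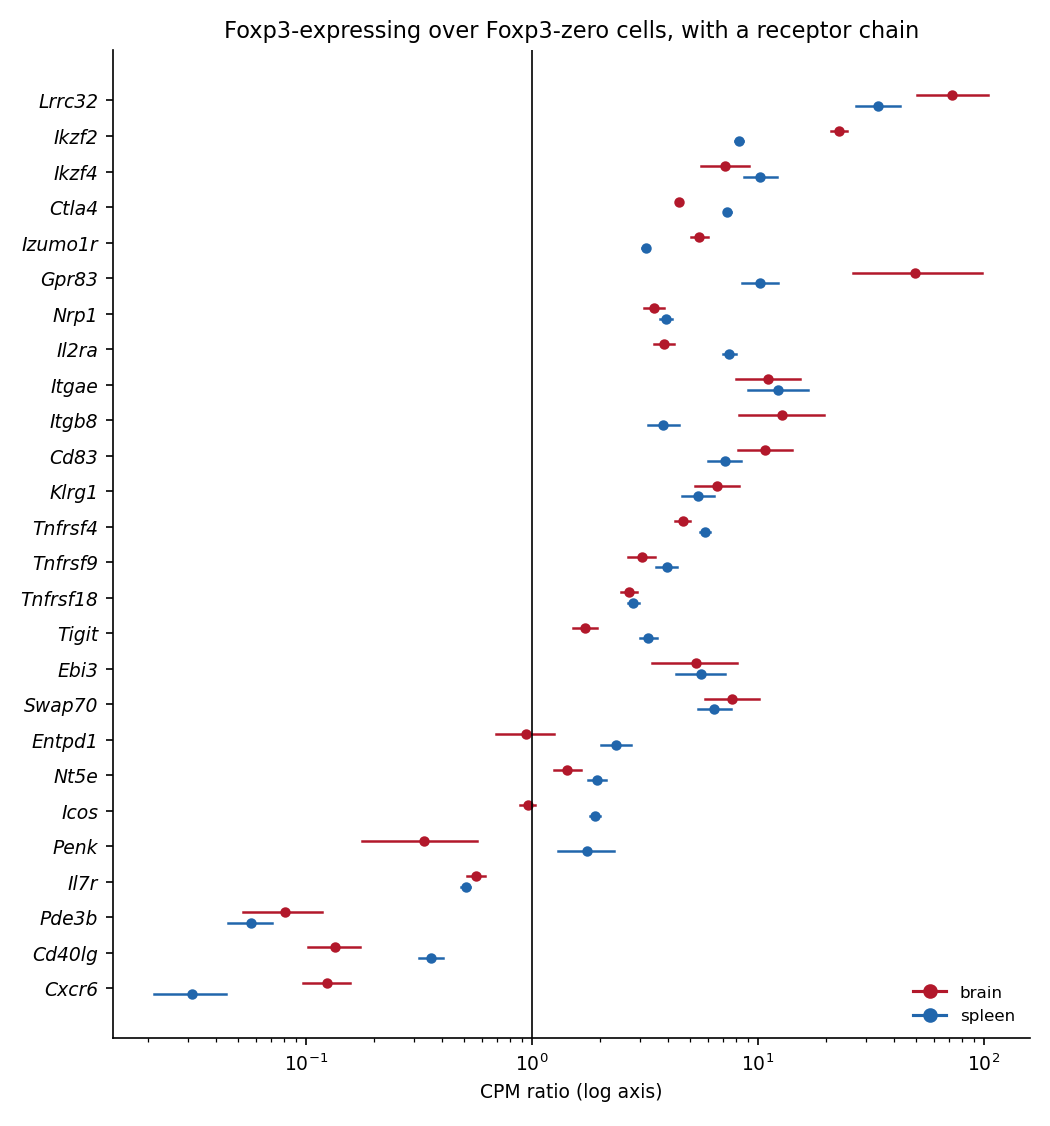
Ratio of pooled CPM, Foxp3-expressing over Foxp3-zero cells with a receptor chain (log axis), for 26 genes in brain (red) and spleen (blue). Bars are exact 95% intervals and the line marks 1. Lrrc32 and Ikzf2 lie far to the right in both tissues, Il7r, Pde3b, Cd40lg and Cxcr6 lie to the left, and Penk lies on opposite sides.

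Foxp3-expressing cells of brain and spleen were then compared with each other, with the same ratio in Foxp3-zero cells beside it. Brain cells were higher for genes of effector regulatory T cells, tissue residency and the immediate response, and lower for several genes of resting and lymphoid cells. Of 20 effector regulatory T cell genes 13 were higher in brain and 0 lower, with a median of 1.29 on the log2 scale. Of 18 residency genes 14 were higher, with a median of 1.64. The lists share genes, so these counts are not independent. Prdm1, Bhlhe40, Rgs1, Cxcr6, Cd69 and Nr4a1 were called higher in both lists. Cd69 and Nr4a1 also stand in the early response list, as do Irf4 of the effector list and Nr4a2 of the residency list. With a receptor chain, Icos and Irf4 of the effector list and Runx3 of the residency list were no longer called. Their values were 0.54, 0.53 and 0.54 on the log2 scale. Of 15 resting genes 6 were lower and 0 higher, with a median of -0.49, and 4 and 1 with a receptor chain. Over all 8663 genes tested, 9.44% were called higher and 10.1% lower in brain, with a median of -0.09, and over cells with a receptor chain 8.83% and 9.15%. Between Foxp3-zero cells 10.2% were called higher and 9.5% lower, and 9.85% and 8.43% with a receptor chain. In Foxp3-zero cells 13 of 17 effector genes were higher in brain (median 1.93), 16 of 18 residency genes were higher (median 2.12), and 12 of 15 resting genes were lower and 1 higher (median -1.01). These directions were thus not particular to Foxp3-expressing cells.

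Foxp3 itself reached 521 CPM among brain cells and 719.9 CPM among spleen cells, or 675 and 715 CPM with a receptor chain. The markers Ikzf2 (0.797-fold), Il2ra (0.915-fold) and Lrrc32 (0.997-fold) were not called between tissues. Ctla4 was higher in brain, at 2099.6 against 1032 CPM, 2.03-fold (1.96 to 2.11), and 3.87-fold higher in brain Foxp3-zero cells. Areg was 8.56-fold higher in brain Foxp3-expressing cells (6.82 to 10.8) and 16.8-fold in Foxp3-zero cells. Il10 was 11.8-fold higher (6.44 to 23.2), and 4.88-fold, below the level for a call, in Foxp3-zero cells. The Foxp3-expressing cells of spleen had 13 Il10 UMIs in 9 cells.

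Homing receptors differed between the tissues. Cxcr6, a receptor of tissue T cells, was at 145 and 6.81 CPM in brain and spleen, 21.3-fold higher, and 7.12-fold higher (4.63 to 11.2) in cells with a receptor chain, where brain had 45.3 CPM. Its ratio in Foxp3-zero cells was 1.87. The spleen Foxp3-zero set held invariant NKT cells, of which 97.7% had a Cxcr6 UMI. Without them, the spleen ratio of Foxp3-expressing over Foxp3-zero cells moved from 0.0350 to 0.0809. Their part in the ratio of 1.87 was not tested. Within brain, Cxcr6 was lower in Foxp3-expressing than in Foxp3-zero cells, 0.399-fold, and 0.124-fold with a receptor chain. Ccr8, a receptor of tissue regulatory T cells, was at 67.3 and 23.4 CPM, 2.88-fold higher in brain, and 14.2-fold in Foxp3-zero cells. Ccr2, a receptor for inflammatory chemokines, was 2.11-fold higher and 1.71-fold in Foxp3-zero cells. Ly6c2 was 32.0-fold higher, at 76.7 and 2.39 CPM, with its UMIs in 16 brain and 8 spleen cells.

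Ccr7 and S1pr1, genes of recirculation, had ratios between the tissues nearer to 1 in Foxp3-expressing than in Foxp3-zero cells. Ccr7, the lymph node homing receptor, was at 164 and 229 CPM in Foxp3-expressing cells of brain and spleen, a ratio of 0.713 that was not called, and was 0.342-fold in Foxp3-zero cells. S1pr1, the receptor by which T cells leave lymphoid organs, was at 175 and 200.5 CPM in Foxp3-expressing cells, a ratio of 0.871 that was not called, and was 0.496-fold in Foxp3-zero cells. Within brain, over cells with a receptor chain, Ccr7 was at 221 CPM in Foxp3-expressing and 122 CPM in Foxp3-zero cells, 1.82-fold higher (1.63 to 2.03). In the same cells S1pr1 was 1.63-fold higher (1.46 to 1.82) and Klf2, a transcription factor of resting T cells, 1.52-fold higher (1.44 to 1.60), and over all cells none of the 3 was called. With a receptor chain, 8 of 15 resting genes, among them Ccr7, S1pr1 and Klf2, were higher in Foxp3-expressing than in Foxp3-zero brain cells. By contrast Tcf7 and Il7r, on the same list, were lower.

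Other genes lower in brain Foxp3-expressing cells were Id3 (28.5 and 95.6 CPM, 0.299-fold), an inhibitor of E proteins, and Dtx1 (15.9 and 89.8 CPM, 0.177-fold), a Notch pathway ubiquitin ligase. Cxcr5, which leads cells into B cell follicles, was 0.313-fold, Izumo1r 0.424-fold, Gpr83 0.421-fold and Itgb8 0.400-fold. Foxp3-zero cells gave 0.251-fold for Id3, 0.197-fold for Dtx1, 0.178-fold for Cxcr5 and 0.284-fold for Izumo1r.

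Most immediate early genes, which are also known to be switched on while tissue is taken apart, were higher in brain in both sets of cells. Of 10 early response genes measured in Foxp3-expressing cells 8 were higher in brain, Myc was not called, and Egr2 was lower, at 7.34 and 14.5 CPM (0.505-fold, 0.285 to 0.850). In Foxp3-zero cells 8 of 9 were higher and 0 lower. Fos was at 1058 CPM in Foxp3-expressing brain cells and 77.5 CPM in spleen, 13.6-fold, and at 1490 and 64.8 CPM, 23.0-fold, in Foxp3-zero cells. Fosb was 23.5-fold and 43.5-fold higher, and 13.6-fold (9.64 to 19.6) in Foxp3-expressing cells with a receptor chain. Atf3 had 135 UMIs in 38 Foxp3-expressing brain cells and 1 UMI in spleen, a ratio of 299 (52.8 to 1.19e+04). Of 15 stress genes 12 were higher in brain, with a median of 2.35 on the log2 scale. Cd69 (3.37-fold), Rgs1 (2.93-fold), Bhlhe40 (13.5-fold) and Nr4a1 (4.55-fold), which stand in the residency or effector lists, moved with them. The part of tissue handling in these differences was not tested.

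Several genes higher in brain over all Foxp3-expressing cells were not so in cells with a receptor chain. Pde3b went from 2.48-fold to 1.03-fold, Tnf from 2.68-fold to 0.881-fold, Cd40lg from 1.63-fold to 0.716-fold, Themis from 1.79-fold to 0.659-fold and Hdac9 from 1.55-fold to 0.471-fold. Ifng went from 37.5-fold to 7.42-fold and Bhlhe40 from 13.5-fold to 7.77-fold, and these remained called. For Il17a, spleen had 0 UMIs. Against a floor of 3 counts over the spleen group, brain was at least 114-fold higher over all Foxp3-expressing cells, and the exact 95% interval of the ratio began at 92.0. The 1 brain barcode with most Il17a UMIs gave 49.0% of them, and the 1 UMI left with a receptor chain was too low for a call.

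**Figure D4:**
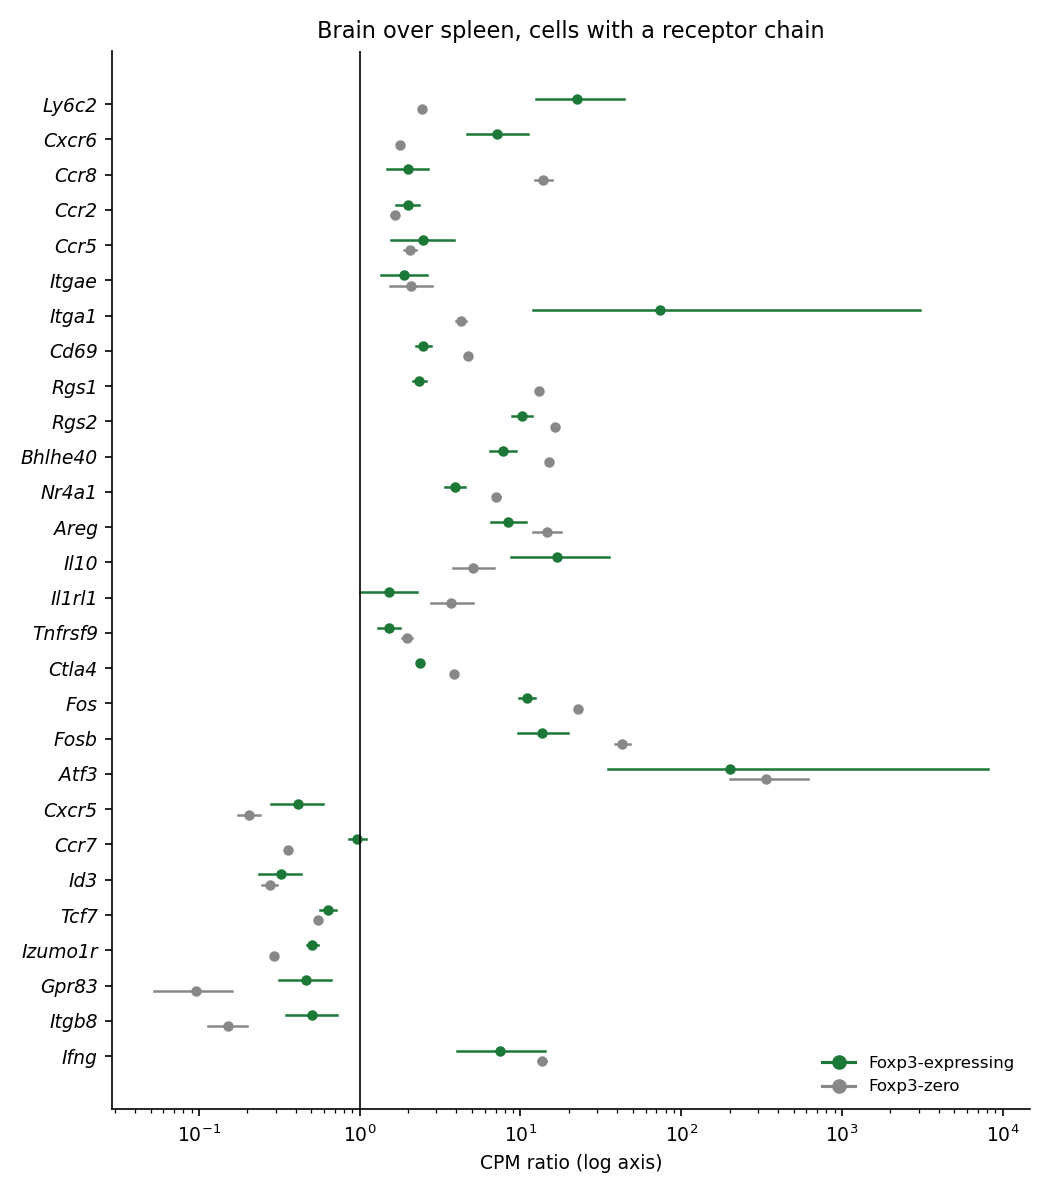
Ratio of pooled CPM, brain over spleen (log axis), in Foxp3-expressing (green) and Foxp3-zero (grey) cells with a receptor chain, for 28 genes. Bars are exact 95% intervals and the line marks 1. Fos, Fosb and Atf3 lie to the right in both sets, Id3 and Tcf7 lie to the left in both, and Ccr7 lies nearer to 1 in Foxp3-expressing (0.966) than in Foxp3-zero cells (0.360).

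The Foxp3-expressing cells varied among themselves in Ikzf2, a gene that separates most regulatory T cells formed in the thymus from many formed in the periphery. Among those with a receptor chain, 128 brain cells had an Ikzf2 UMI and 30 had none, and in spleen 530 had one and 126 had none. Median depth was 9018 and 7679 UMIs in brain, and 7044.5 and 6615.5 UMIs in spleen. Foxp3 differed little over this split, at 675 and 676 CPM in brain and 721 and 686 CPM in spleen, and Ctla4 was at 2436 and 2379 CPM in brain and 1032 and 991 CPM in spleen. In spleen 7.14% of 8673 genes were called higher in cells with Ikzf2 and 2.54% lower, and in brain 4.53% of 8615 higher and 3.42% lower.

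Among surface molecules of suppression, 7 of 18 measured were higher and 1 lower in spleen cells with Ikzf2 than in those without. Of 19 effector regulatory T cell genes 12 were higher and 0 lower, with a median of 1.03 on the log2 scale against 0.07 over all genes. Pdcd1 was at 121 and 12.4 CPM, 9.75-fold (5.40 to 19.7). Tnfrsf9 was at 116 and 9.03 CPM, 12.9-fold, Tigit at 162 and 20.3 CPM, 7.98-fold, and Itgb8 at 54.0 and 3.39 CPM, 16.0-fold. Of 15 resting genes 7 were higher in spleen cells without Ikzf2 and 0 lower, with a median of -0.51, among them Ccr7 (191 and 409 CPM), Ly6c1 (58.6 and 167 CPM), Dapl1 (13.8 and 80.1 CPM) and Igfbp4 (30.4 and 100.5 CPM). In brain, 6 of 18 surface genes were higher with Ikzf2 and 0 lower, 4 of 20 effector genes were higher and 2 lower, and 2 of 15 resting genes were higher and 2 lower. Tnfrsf9 was at 168 and 44.8 CPM, 3.75-fold, Tnfrsf4 at 610.1 and 248 CPM, 2.46-fold, and Tigit at 200.3 and 69.2 CPM, 2.89-fold. Brain cells without Ikzf2 were higher for Il10 (26.5 and 93.7 CPM, 0.282-fold), Tbx21 (8.32 and 48.9 CPM, 0.170-fold) and Maf (176 and 314 CPM, 0.562-fold). With 30 such cells, few cells set these brain levels. The difference of this split between tissues was not tested.

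Foxp3-expressing cells had few expanded receptors. A receptor pair was recovered for 141 brain and 610 spleen Foxp3-expressing cells. In brain, 6 of 141 (4.26%, interval 1.58 to 9.03%) belonged to a clonotype of at least 2 cells of that tissue, against 1286 of 2965 Foxp3-zero cells (43.4%, 41.6 to 45.2%). In spleen it was 40 of 610 (6.56%, 4.73 to 8.82%) against 703 of 5968 (11.8%, 11.0 to 12.6%). The share depends on how many cells a set holds, so diversity was also given at equal numbers. A draw of 141 paired cells was expected to hold 140 clonotypes among brain Foxp3-expressing cells and 128.8 among brain Foxp3-zero cells. In spleen the numbers were 140.2 and 139.9, so there the sets were alike at that size. The largest clonotype counted within Foxp3-expressing cells had 2 cells in brain and 4 in spleen, against 67 and 60 within Foxp3-zero cells.

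**Figure D5:**
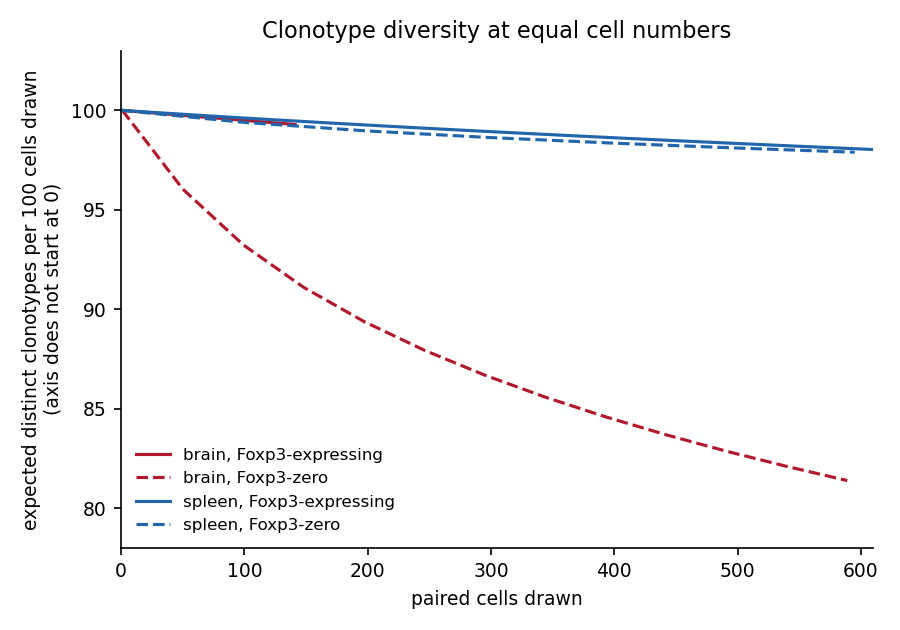
Expected number of distinct clonotypes per 100 paired cells drawn (axis does not start at 0) against the number of cells drawn, for Foxp3-expressing (solid) and Foxp3-zero cells (dashed) of brain (red) and spleen (blue). The brain Foxp3-zero curve falls below the other curves, with 128.8 clonotypes expected in 141 cells.

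Sharing of receptors with other cells was rare. A Foxp3-zero cell of the same tissue held the same clonotype for 4 of 141 brain and 16 of 610 spleen Foxp3-expressing cells. The clonotype was seen in the other tissue for 5 of 141 brain Foxp3-expressing cells (3.55%, 1.16 to 8.08%), against 564 of 2965 Foxp3-zero cells (19.0%, 17.6 to 20.5%). In spleen it was 4 of 610 (0.656%, 0.179 to 1.67%) against 407 of 5968 (6.82%, 6.19 to 7.49%). These intervals treat cells of 1 clonotype as independent, which they are not for a trait of the clonotype. Expanded clones and set size also enter the shares, which were not given over distinct clonotypes or at equal cell numbers. Of the 38 clonotypes that held a Foxp3-expressing cell and more than 1 cell in all, 7 spanned both tissues and 2, clonotypes C and D, had Foxp3-expressing cells in both. Of the 38, 23 held a Foxp3-zero cell and 15 did not. Together they held 53 Foxp3-expressing cells, 4 cells with 1 Foxp3 UMI and 77 Foxp3-zero cells, of which 48 were in clonotype A.

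Gene segment use was compared over distinct clonotypes, 140 and 598 with Foxp3 and 1970 and 5510 without. The invariant TRAV11-TRAJ18 pair of NKT cells was absent from Foxp3-expressing cells. This follows from the background count above, in which no invariant NKT cell had 2 Foxp3 UMIs, and is not a separate result. In brain it was at 0 of 141, which allows up to 2.13% at a floor of 3 cells (exact binomial upper limit 2.58%). In spleen it was at 0 of 610, which allows up to 0.492% at the same floor (exact upper limit 0.603%). Foxp3-zero cells had it in 4.11% and 11.0%. Of 163 segments seen in brain, 2 had 95% intervals that did not overlap between the sets, and of 165 in spleen, 6 did. Among the 6 were TRAV11 and TRAJ18, the segments of the invariant pair. TRBV12-1 had intervals apart in both tissues. It was used by 3.57% of Foxp3-expressing and 0.558% of Foxp3-zero clonotypes in brain (5 and 11 clonotypes) and by 2.01% and 0.744% in spleen (12 and 41). TRBV26, the segment of clonotype D, was used by 5.69% and 3.18% in spleen, and TRBV16 by 7.19% and 4.16%. A second TRA chain was recovered in 15.6% of Foxp3-expressing and 12.0% of Foxp3-zero brain cells and in 14.6% and 12.6% in spleen, with intervals that overlapped. The mean CDR3 length of TRB was 41.9 bases in brain Foxp3-expressing and 41.8 bases in brain Foxp3-zero clonotypes, and 41.7 and 41.9 bases in spleen. For TRA it was 40.2 and 40.8 bases in brain and 40.3 and 41.1 bases in spleen. The Foxp3-zero sets include the cells with the invariant pair, and segment shares and CDR3 lengths without those cells are not given.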

How the data were processed

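The 10x RNA matrices and receptor contig tables of brain and spleen (4 libraries) were used. Per the submitters' processing notes, Cell Ranger 9.0.0 was run, and GRCm39, GRCm38, mm39 and mm10 are named with no role, so no coordinates are given. The values as deposited are UMI counts per gene and cell, not normalized, and UMI counts per receptor chain. RNA and receptors were joined by barcode within a tissue. Counts were summed over cells and scaled to CPM (counts per 1e6 UMIs). Ratios have exact conditional binomial (Clopper-Pearson) 95% intervals, shares exact binomial ones, and levels exact Poisson ones. With 1 library per tissue no count model or p-value was used. Foxp3 was left out of the gene counts. A floor is 3 counts, and a share of 0 is given the limit of 3 cells of the total. Clonotypes needed 1 productive TRB and at least 1 productive TRA, the TRA with most UMIs. The Foxp3-expressing cells, the 25 gene lists (278 of 281 symbols matched) and the tests were chosen with earlier results of these data known. Named genes were the markers, the sort markers, up to 8 genes of each list and, per comparison, the 10 highest and 10 lowest ratios among genes of at least 50 CPM. The alternatives over cells with a receptor chain and without invariant NKT cells were chosen after seeing the data. Some genes that this rule names are not reported here. The ratio step was tested on simulated pooled counts with Poisson error only. That simulation had no variation between cells, so it cannot show how calls hold where few cells carry a gene. Python 3.11.15 with numpy 2.4.6, scipy 1.17.1, pandas 2.3.3 and matplotlib 3.10.9, and edgeR 4.0.16 for scaling factors, were used.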

Additional observations from a re-analysis of the deposited data

Results flagged for a closer look

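The named genes below moved in opposite directions against Foxp3-zero cells in brain and in spleen, and whether the effects differ between tissues was not tested. Ube2c, a gene of cell division, was 1.75-fold in brain, from 12 Foxp3-expressing cells, and 0.600-fold in spleen, and with a receptor chain 2.39-fold and 0.707-fold, the latter not called. Without the deepest 1% of cells the spleen value turned to 0.54 on the log2 scale, so the tissues no longer went opposite ways, and against deep Foxp3-zero cells the brain value was 0.34 on the log2 scale and not called. Penk, the enkephalin precursor, was 0.505-fold in brain and 1.84-fold in spleen, and 0.333-fold and 1.75-fold with a receptor chain. Its UMIs came from 16 brain and 17 spleen Foxp3-expressing cells. Lta, lymphotoxin alpha, was 0.590-fold in brain and 1.84-fold in spleen, and 0.523-fold and 1.84-fold with a receptor chain. Cd79b, a B cell receptor chain, was 8.47-fold in brain and 0.515-fold in spleen. With a receptor chain it was 11.8-fold and 4.60-fold, higher in both tissues. The spleen Foxp3-zero set holds B-like barcodes, 9 of 10 measured B cell genes were lower in Foxp3-expressing cells there, and over cells with a receptor chain the Foxp3-zero level of Cd79b fell from 35.7 to 4.02 CPM.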

How the results depend on the processing

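No paired analysis was possible because each tissue had 1 RNA library, and for the same reason no replicate could be left out. The share of Foxp3-expressing cells was 6.76% in brain and 11.7% in spleen at 1 or more Foxp3 UMIs, 4.36% and 7.16% at 3 or more, 2.78% and 5.69% at 3000 UMIs per cell, and 4.49% in brain cells with a receptor pair. Genes higher and lower in brain against Foxp3-zero cells numbered 507 and 431, and 175 and 132 at 50 CPM, 1046 and 677 with no minimum, and 223 and 167 at 2-fold. In spleen the counts were 579 and 415, and 238 and 125, 1222 and 1098, and 250 and 227. Between tissues they were 818 and 872, then 398 and 218 at 50 CPM, 1271 higher with no minimum, and 413 and 237 at 2-fold. Expansion of at least 3 cells gave 1.42% in brain and 1.15% in spleen, and at 3 or more Foxp3 UMIs 0% of spleen cells had a clonotype in brain.

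The 385 called values of named genes had 4090 alternatives, of which 156 lost the call and 28 changed sign. Sign changes in spleen (log2) were Ccr9 without invariant NKT cells (0.28), Ube2c without the deepest 1% of cells (0.54), Cd79b with a receptor pair, a receptor chain or deep Foxp3-zero cells (2.23, 2.20 and 0.28), and Ighd likewise (1.59, 1.56 and 0.67). For brain over spleen, values with a receptor pair and with a chain were Cd40lg -0.74 and -0.48, Themis -0.63 and -0.60, Tnf -0.28 and -0.18, Tnfsf11 -0.36 and -0.48, Hdac9 -1.39 and -1.09, Ifitm3 -0.73 and -0.84, Nrgn -0.27 and -0.32, St3gal6 -0.42 and -0.51, and Il1r1 -0.077 and -0.13. Pde3b was -0.0069 with a pair, and Hdac9 -1.16 at 3 or more Foxp3 UMIs. Brain Penk (-0.34), spleen Il2rb (0.57) and spleen Gata3 (0.52) lost the call at 1 or more Foxp3 UMIs. The cause was not tested. TMM scaling moved log2 ratios by at most 0.06. Depth and the 206 brain cells limit what low genes can show.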

Other observations

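Of 10 measured genes of cell division, 5 were higher and 0 lower in Foxp3-expressing than in Foxp3-zero brain cells over cells with a receptor chain, with Mki67 at 86.7 and 52.6 CPM (1.65-fold, 1.37 to 1.96) and Ccnb2 at 20.4 and 5.60 CPM (3.64-fold). Mki67 was counted in 29 of 158 cells, and 1 cell gave 26.5% of its UMIs. In spleen 3 of 10 were lower and 0 higher, with Stmn1 at 0.517-fold and Top2a at 0.558-fold, and Mki67 was at 78.5 and 69.2 CPM. Top2a was not called in spleen without the deepest 1% of cells (-0.38 on the log2 scale). A Mki67 UMI was counted in 20.4% of Foxp3-expressing and 13.1% of Foxp3-zero brain cells, or 8.60% and 5.77% at 3000 UMIs. The spleen shares were 12.7% and 7.08%, or 7.56% and 4.26% at 3000 UMIs. Over all Foxp3-expressing brain cells 2 of 10 were higher, and the difference between tissues was not tested. Of 10 measured survival genes, 2 were higher and 3 lower in Foxp3-expressing brain cells (Bcl2l11, Bcl2a1b and Bcl2a1d). In spleen 2 were higher and 1, Bcl2a1d, was lower. The higher ones in both tissues were Pim1, a kinase induced by cytokines, and Fas. Pim1 was 1.62-fold higher in brain and 3.29-fold higher in spleen, and Fas 1.70-fold and 1.74-fold. Against deep Foxp3-zero cells Pim1 was not called in brain (0.58 on the log2 scale). Ifi27l2a, an interferon-induced gene, was 1.89-fold and 2.16-fold higher, while Mx1, also interferon-induced, was 0.405-fold in brain and was at 8.28 and 11.6 CPM in spleen.

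Ighm, the immunoglobulin mu chain gene, was at 274 CPM in Foxp3-expressing and 88.8 CPM in Foxp3-zero brain cells, 3.09-fold, and over cells with a receptor chain at 524 and 274 CPM in spleen, 1.91-fold. It was counted in 74.3% and 84.0% of Foxp3-expressing cells and in 59.3% and 82.6% of invariant NKT cells, while Ms4a1 was at 0 in Foxp3-expressing cells. Its source was not tested. Frmd5, a cytoskeletal gene chosen after its value was seen, was 206-fold higher in brain Foxp3-expressing than Foxp3-zero cells with a receptor chain (104 to 465) and 65.0-fold over all cells, carried by 10 of 158 cells, of which 1 gave 20.7% of its UMIs. The chemokine genes Ccl1 and Xcl1 were at 99.7 and 102 CPM in Foxp3-zero brain cells and at 1.63 and 7.34 CPM in Foxp3-expressing ones, or 0.638 and 1.28 CPM with a receptor chain.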
